A study of Drosophila melanogaster with 2 samples.

Results

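Rab GTPase genes of Drosophila melanogaster were examined for binding of CG32264, a fly relative of the actin-binding phosphatase regulators, by chromatin immunoprecipitation followed by sequencing (ChIP-seq). A gene was a member when it is protein-coding and its symbol begins with Rab and a digit or with RabX and a digit in the Ensembl annotation BDGP6, and 36 of 13945 protein-coding genes on arms 2L, 2R, 3L, 3R, 4 and X met this rule. The symbols go against the name of the set in 3 cases, since Rab3-GEF, Rab3-GAP and Rab3GAP1 encode regulators of a Rab protein and not a Rab GTPase, which leaves 33 Rab GTPases. The larvae were of the strain CG32264-GFP, which stably expresses CG32264 with green fluorescent protein (GFP) at its C terminus, and chromatin of wandering larvae of the third instar of mixed sex and unknown age was precipitated with an antibody to GFP. There was 1 group with 2 biological replicates, numbered 1 and 3, and no other genotype, treatment or time. The promoter that drives the fusion gene is not given in the sources used here, and whole larvae mix all tissues, so a peak is not tied to a cell type. A control library was not analysed here, and peak lists do not measure expression, so the tissue could not be checked against marker genes.

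Rab proteins are small GTPases that switch between a GDP-bound and a GTP-bound state and mark the membranes of the cell. Different compartments carry different Rab proteins, and several of these proteins can share a compartment. Exchange factors load them with GTP on the membrane, GTPase-activating proteins return them to the GDP-bound state, an escort protein and a prenyltransferase attach the lipid that anchors them, and tethers and motors that bind the GTP-bound form carry out transport. In wandering larvae they serve the endocytosis of the fat body and nephrocytes, the secretion of glue by the salivary gland and the release of transmitter at synapses, among other tasks.

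The deposited peak lists give each peak a signal, the authors' own value on a scale that belongs to its list, and peaks were ranked by it, with rank 1 for the highest. The authors' optimal set, kept by an analysis of the irreproducible discovery rate (IDR), a comparison of peak ranks between replicates, held 2546 peaks with a signal of 61.1 to 956 (median 90.2), and they are the highest 2546 of the pooled list, which the authors made from both replicates. Each list before IDR held 30000 peaks, with a signal of 9.20 to 664 in replicate 1 and of 6.12 to 392 in replicate 3. Sequencing depth cannot be read from these lists, and a gene for which no peak is given may still bind the protein.

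Of the 36 genes, 5 had a summit of the optimal set within 500 bp of an annotated start, namely Rab1, Rab5, Rab8, RabX1 and Rab3GAP1. The share was 13.9% (exact Clopper-Pearson 95% interval 4.67 to 29.5%, counting error only), against 10.4% of all protein-coding genes (1450 of 13945), so the count lies near the background and is not a result about Rab genes. Among the 33 GTPases it was 4 (12.1%, interval 3.40 to 28.2%). Summits lay inside 3 of the 36 genes, Rab5, Rab11 and Rab14 (8.33%), against 7.73% of protein-coding genes. Together 7 genes carried 8 summits, 4 of them in introns and 4 between genes, and 29 genes had none.

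The sequences under the summits of 5 of the 8 peaks are shown here, as the bases at the centre of peaks that are described below. Each is on the strand of its gene, 5′ to 3′, from Release 6 of the genome (dm6), reaches up to 100 bases to either side of the summit and stops where an annotated exon begins. Capitals mark matches to a searched motif, also where the match is on the other strand.
Rab5 intron (chr2L:2363650-2363850, minus strand): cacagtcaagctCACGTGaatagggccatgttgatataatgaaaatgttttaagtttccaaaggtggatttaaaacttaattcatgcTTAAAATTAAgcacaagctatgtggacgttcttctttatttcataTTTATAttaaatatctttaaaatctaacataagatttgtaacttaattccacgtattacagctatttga
Rab8 upstream (chr3L:19871079-19871138, minus strand): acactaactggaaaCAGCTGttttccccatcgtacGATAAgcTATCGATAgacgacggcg
Rab1 upstream (chr3R:21269061-21269186, minus strand): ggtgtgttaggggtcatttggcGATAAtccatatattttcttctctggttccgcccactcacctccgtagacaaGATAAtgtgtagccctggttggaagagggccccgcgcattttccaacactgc
Rab11 intron (chr3R:21113185-21113385, plus strand): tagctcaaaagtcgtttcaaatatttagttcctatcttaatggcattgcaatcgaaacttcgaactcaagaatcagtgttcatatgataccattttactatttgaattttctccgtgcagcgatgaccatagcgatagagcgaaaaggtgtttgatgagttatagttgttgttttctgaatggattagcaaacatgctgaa
Rab14 intron (chr2L:14355676-14355807, plus strand): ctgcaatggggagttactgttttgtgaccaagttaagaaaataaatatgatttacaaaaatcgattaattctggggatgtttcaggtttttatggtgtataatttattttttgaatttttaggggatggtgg

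The searched motifs were TATCGATA (the DNA replication-related element), GAGAG (the GAGA element), GATAA (the GATA site), CACGTG and CAGCTG (E-boxes), GGTCACACT (the M1BP element), TATAAA (the TATA box) and the Mef2 site, on both strands, in a window of 100 bases to either side of each summit. The 7 windows searched were those of Rab1, Rab5, Rab8, Rab14 and RabX1 and both of Rab11. The DNA replication-related element was in 1 of the 7, that of Rab8, against 2.95% of all 2546 windows of the optimal set. The E-box CACGTG was in 1 window, that of Rab5 (2.24% of all windows), and CAGCTG in 2, those of Rab8 and of the weaker Rab11 peak (9.62%). The GATA site was in the windows of Rab1, where it occurs at 2 places in the printed bases, and of Rab8 (40.3% of all windows). Rab5 held a TATA box (32.0%) and a Mef2 site (10.9%). The GAGA element (27.6% of all windows) and the M1BP element (0.786%) were in none of the 7. No capitals in the printed bases overlap between motifs. With 7 windows these matches are a description and name no bound factor. GC content in the 7 windows ran from 28.4% at Rab5 to 41.8% at Rab8 and 48.8% at Rab1, around a median of 35.8% over all windows.

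**Figure D1:**
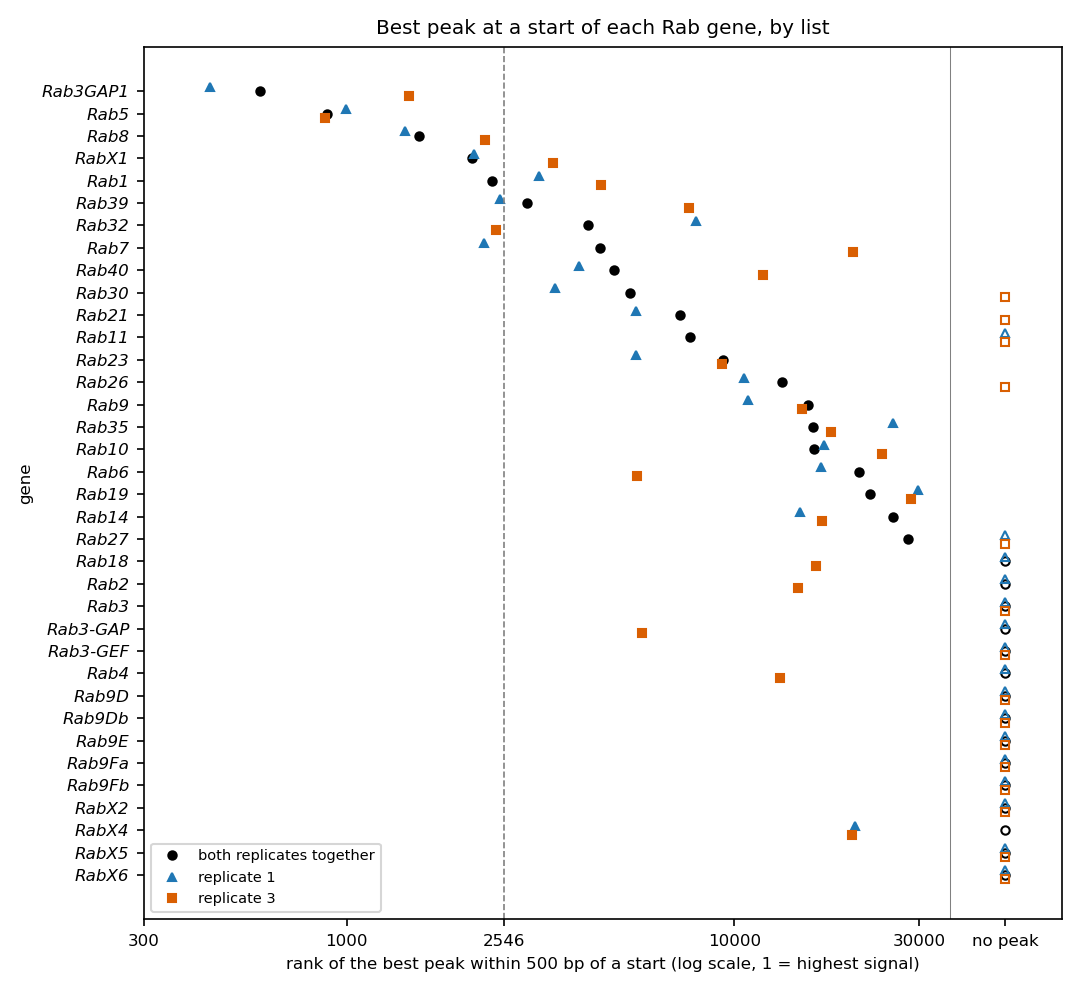
Rank of the best peak within 500 bp of a start (x axis, log scale) for each of the 36 genes (y axis, sorted by the list of both replicates together), with circles for both replicates together, triangles for replicate 1, squares for replicate 3 and open symbols for genes with no such peak in a list. The dashed line is rank 2546, the end of the optimal set, and 5 genes have a circle to its left.

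Secretory and Golgi Rab genes had a start peak in 2 of 8 cases (25.0%, interval 3.19 to 65.1%), against 10.4% of all protein-coding genes. Rab8, which acts in transport from the Golgi to the plasma membrane, had a summit 35 bp upstream of a start (3L, 19870925 to 19871300, rank 1540). Its signal was 81.4 in the list of both replicates together, 51.7 in replicate 1 (rank 1410) and 30.7 in replicate 3 (rank 2276). Both replicates thus placed it inside the top 2546. The same summit lay 26 bp from a start of the ubiquitin protease gene Usp32, which runs the other way, so the 60 bases printed for Rab8 are the whole gap between the 2 genes and the peak cannot be assigned to either. Rab1, needed for transport from the endoplasmic reticulum to the Golgi, had a summit 26 bp upstream of its only start (3R, 21268898 to 21269273, rank 2374). Its signal was 64.2 in both replicates together, 32.3 in replicate 1 (rank 3129) and 21.7 in replicate 3 (rank 4536). Neither replicate alone placed the Rab1 peak in its top 2546, and its −log10 q of 2.72 was the lowest of the 8 peaks, all others being at 3.63. Rab1 was the member just inside the end of the optimal set.

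The other 6 genes of this group had no summit of the optimal set at a start or inside. Rab30, a Golgi Rab, had its nearest such summit 871 bp upstream of its start (rank 2248). The best peak at the Rab30 start had rank 5373 with both replicates together and 3436 in replicate 1, with no peak in replicate 3. Rab2, Rab6, Rab10, Rab18 and Rab19 had start peaks of rank 16029 or worse in the list of both replicates, or none. Rab6, a Golgi Rab of retrograde transport, had a start peak of rank 20996 with both replicates together, 16721 in replicate 1 and 5616 in replicate 3. Inside Rab2, which acts at the Golgi and in lysosome fusion, the best rank was 9515 with both replicates together, 5941 in replicate 1 and 6889 in replicate 3.

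Endocytic and recycling Rab genes had a start peak in 1 of 8 cases (12.5%, interval 0.316 to 52.7%), against 10.4% of all protein-coding genes. A summit lay inside the gene in 3 of 8 (37.5%), against 7.73%. These 3 genes are 3620 to 6132 bp long, against a median of 2166 bp for protein-coding genes, and the background share was not matched for length. With 8 genes in a group formed for this report, these counts are a description, and no difference between the groups was tested. Rab5, the organiser of early endosomes, had the highest rank of the GTPases. Its summit lay 246 bp upstream of the nearest of its 6 starts and 1523 bp downstream of the most upstream start, in an intron (2L, 2363562 to 2363937, rank 887). The signal was 111 in both replicates together, 61.6 in replicate 1 (rank 998) and 48.1 in replicate 3 (rank 881). The ranks of the replicates were close to each other here. With only the most upstream start of each gene, Rab5 did not count as having a start peak. Several weaker peaks of the list of both replicates lay along the gene, including those 867 bp downstream (signal 47.5, rank 3949) and 148 bp upstream (signal 39.8, rank 5312) of the most upstream start.

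Rab11, which directs recycling endosomes and vesicles bound for the plasma membrane, was the only member with 2 summits of the optimal set. Both lay in the intron that follows its first coding segment, 1877 bp (3R, 21113097 to 21113472, rank 1001) and 1258 bp (21112478 to 21112853, rank 1986) downstream of its only start. The stronger had a signal of 104 in both replicates together, 66.7 in replicate 1 (rank 875) and 37.5 in replicate 3 (rank 1503). The weaker had a signal of 70.9 in both replicates together, 43.0 in replicate 1 (rank 1951) and 26.7 in replicate 3 (rank 3080). At the start itself Rab11 had a peak of rank 7662 in the list of both replicates and none in either replicate list, so Rab11 is not among the genes with a start peak of the optimal set.

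Rab14, known for transport between endosomes and the Golgi and for phagosome maturation, had a summit 562 bp downstream of its most upstream start (2L, 14355519 to 14355894, rank 2033). The summit lay in an intron of Rab14 and also in an intron of the overlapping non-coding gene lncRNA:CR44851. Rab14 was the member just outside the 500 bp window, while Rab5 at 246 bp was the farthest inside it. The Rab14 signal was 69.8 in both replicates together, 56.1 in replicate 1 (rank 1200) and 17.5 in replicate 3 (rank 6604). This was the widest gap in rank between the replicates among the 8 peaks.

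**Figure D2:**
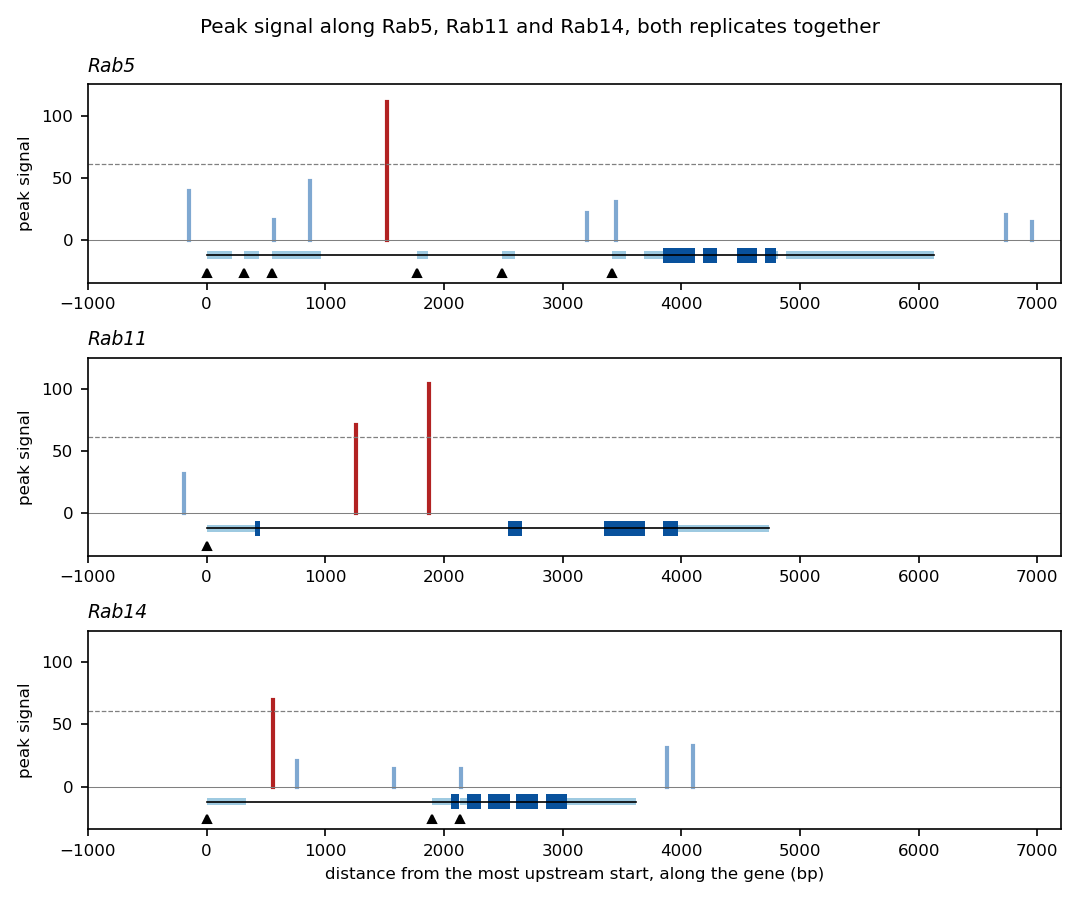
Peak signal (y axis, the authors' scale for both replicates together) against distance from the most upstream start (x axis, bp, along the gene) at Rab5, Rab11 and Rab14, with dark boxes for coding exons, light boxes for other exons and triangles for annotated starts. Red bars are peaks of the optimal set, blue bars are weaker peaks, and the dashed line is the lowest signal of the optimal set (61.1); the red bars stand in introns at 1523 bp in Rab5, 1258 and 1877 bp in Rab11 and 562 bp in Rab14.

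Of the remaining endocytic genes, Rab7, which governs late endosomes and fusion with lysosomes, stood apart between the replicates. The best peak at its starts had a signal of 39.4 and rank 2264 in replicate 1, a signal of 8.36 and rank 20248 in replicate 3, and rank 4497 with both replicates together. Rab9, which returns receptors from late endosomes to the Golgi in mammals, and Rab35, which acts in recycling, had start peaks of rank 15521 and 15971. Rab21 had a start peak of rank 7240, with rank 5565 in replicate 1 and none in replicate 3. Rab4, a gene of fast recycling, had a start peak in the list of replicate 3 only (rank 13136).

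Genes of regulated secretion and the synapse had no summit of the optimal set in 3 of 3 cases. For start peaks the interval reached 70.8%, against 10.4% of all protein-coding genes. Rab3, which sits on synaptic vesicles, had no peak at its start in any list, Rab27 had 1 of rank 28042 with both replicates together and none in either replicate, and Rab26 had a start peak of rank 13271. A summit of rank 40 lay 14211 bp from the nearest start of Rab26, and it is far outside the 500 bp window.

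Both lysosome-related genes missed the optimal set (interval for start peaks up to 84.2%, against 10.4% of all protein-coding genes). Rab39, which acts on endosomes and lysosomes, was the member just outside its end, with a start peak of rank 2924 and a signal of 56.7, against rank 2374 and a signal of 64.2 for Rab1 just inside. Replicate 1 ranked the Rab39 peak 2478 (signal 37.4) and replicate 3 ranked it 7644 (signal 16.1). Rab32, the gene lightoid of pigment granule formation, showed the reverse order, with rank 2429 in replicate 3 (signal 29.9), rank 7953 in replicate 1 (signal 19.1) and rank 4188 with both together. A summit of the optimal set lay past the end of Rab32, 1900 bp from its nearest start (rank 701, signal 124). Rab40, whose relatives in mammals act in ubiquitin ligases, had a start peak of rank 4896, so that Rab39, Rab32, Rab7 and Rab40 were the 4 members between rank 2546 and rank 5092.

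Of the 7 other or less studied genes, RabX1 was the only 1 with a start peak of the optimal set. That is 14.3% (interval 0.361 to 57.9%), against 10.4% of all protein-coding genes. The RabX1 summit lay 136 bp upstream of its start and 107 bp from a start of the gene mi on the other strand (2R, 23523561 to 23523936, rank 2102). It was thus nearer to mi, and the peak cannot be assigned to either gene. The signal was 68.6 in both replicates together, 40.8 in replicate 1 (rank 2133) and 25.3 in replicate 3 (rank 3414). A further peak inside RabX1 had rank 2752 and a signal of 58.7, below the end of the optimal set. RabX5 had a summit of the optimal set 1352 bp from its start, outside the gene (rank 579), and Rab23, a regulator of Hedgehog signalling in mammals and of planar polarity in flies, had a start peak of rank 9362. RabX4 had start peaks in the replicate lists alone, at ranks 20509 and 20065.

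The strongest peak at a start of any of the 36 genes was at a regulator. Rab3GAP1 encodes the catalytic subunit of the GTPase-activating protein of Rab3. Its summit lay 159 bp upstream of its start and 94 bp from a start of CG14352 on the other strand (2L, rank 597). The summit was thus nearer to CG14352, and the peak cannot be assigned to either gene. The signal was 134 in both replicates together, 94.8 in replicate 1 (rank 443) and 38.5 in replicate 3 (rank 1447). Rab3-GAP, which encodes the partner subunit, had a start peak in replicate 3 alone (rank 5783). Rab3-GEF, which encodes the exchange factor of Rab3, had none in any list.

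**Figure D3:**
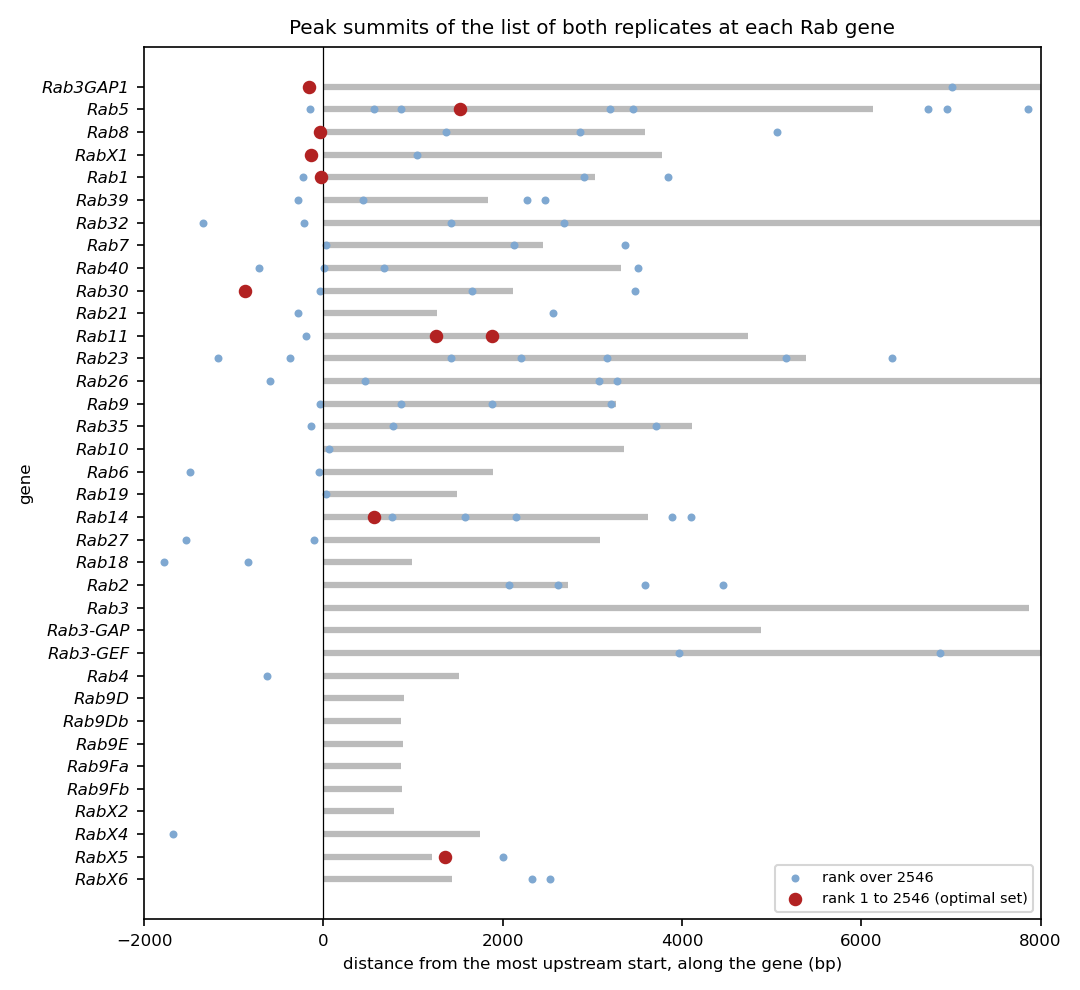
Summits of the list of both replicates together (dots) by distance from the most upstream start along the gene (x axis, bp) for each of the 36 genes (y axis), with grey bars for the genes, drawn up to 8000 bp. Large red dots are peaks of the optimal set and small blue dots are weaker peaks. The red dots of Rab30, 871 bp upstream of its start, and of RabX5 lie outside the genes and outside the 500 bp window, as does that of Rab32 beyond the right edge.

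Of the 5 start peaks, those of Rab3GAP1, Rab5 and Rab8 overlapped a top 2546 peak of both replicates by at least 1 bp, so 3 of 5 against 59.2% of the start peaks of protein-coding genes (858 of 1450). A further gene had a start within 500 bp of the summit in 3 of 5 cases (CG14352, Usp32 and mi), against 58.3%. Replicate 1 gave the better rank in 7 of the 8 peaks, Rab5 being the exception, against 58.6% of the 2514 optimal set peaks with a partner in both lists. Below the optimal set, 21 of 36 genes had a summit of the whole list of both replicates within 500 bp of a start, against 45.8% of protein-coding genes. The whole list also holds background regions, and the best such rank had a median of 7240 in these 21 genes and of 6775 in protein-coding genes with a start peak there. In replicate 1 the number was 20 genes and in replicate 3 it was 21. The shares of all protein-coding genes in the whole replicate lists were not computed, so these numbers have no background beside them.

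Arm X carries 14 of the 36 genes, and 0 of the 14 had a start peak in the optimal set (interval up to 23.2%), against 7.97% of protein-coding genes on X (175 of 2196). Of the 7 genes with no summit at a start or inside in any list, 6 are on X, namely Rab9D, Rab9Db, Rab9E, Rab9Fa, Rab9Fb and RabX2, and RabX6 is on 3L. The share of all protein-coding genes with no such summit was not computed, so this count is a description only. The 6 genes on X are 791 to 897 bp long, against a median of 2166 bp for protein-coding genes. The coding sequences of Rab9D, Rab9Db, Rab9E and Rab9Fa were 98.1 to 99.2% identical to each other in global alignments, and those of RabX2 and Rab9Db 86.5%. Rab9Fb was less alike, with 72.7 to 73.1% identity to these 4 genes, and Rab9 shared 45.5 to 50.5% with the Rab9-like genes. Reads from near-identical copies may not be placed by an aligner. Of the 50-base words within 500 bp of a start, 40.8% occurred once in the assembly at Rab9Fa, 45.7% at Rab9E, 49.2% at Rab9Db, 58.6% at Rab9D and 79.4% at RabX2. The value was 99.3% at Rab9Fb and 100% at each of the other 30 genes. The values of Rab9D, Rab9Db, Rab9E, Rab9Fa and RabX2 are therefore uncertain, and how the authors treated reads with several matches is not given in the sources used here. Whether the copies or the short length account for the missing peaks was not tested.

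Genes that act on Rab proteins had a start peak in 14 of 84 cases (16.7%, interval 9.42 to 26.4%), against the 10.4% of all protein-coding genes. Starts of other genes near these peaks were not searched for. Over all protein-coding genes, 58.3% of start peaks also lay within 500 bp of a start of another gene. The peaks are thus listed by gene and not assigned to it. Among 22 exchange factors 4 had a start peak. The strongest was spri, whose product activates Rab5 (X, 10547072 to 10547255, rank 323, signal 180). Its summit lay 412 bp upstream of a start. Mon1 (rank 872, signal 112) and Ccz1 (rank 1259, signal 90.9) encode partners in the complex that activates Rab7, each with a summit within 21 bp of a start. The last was gry, a subunit of the TRAPP complexes (rank 2076, signal 69.1). In replicate 3 the Ccz1 peak had rank 2690, outside the top 2546. The peaks of spri, Mon1 and gry were inside it in both replicates. Rab7 itself was outside the optimal set, as given above.

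Among 18 GTPase-activating proteins 2 had a start peak, CG12241 (rank 419, signal 159) and CG5916 (rank 1695, signal 77.6), both listed here as proteins with a TBC domain, the catalytic domain of this class. Of 5 genes of membrane delivery 2 did. They were Jwa, a small membrane protein with a prenylated Rab acceptor domain (rank 876, signal 112), and Rep, the escort protein that presents Rab proteins for lipid attachment (rank 921, signal 108). Among 39 tethers and effectors 6 had a start peak, led by Vps33B, a Sec1/Munc18 protein of endosomal fusion (rank 229, signal 207), and by Rbsn-5, an effector of Rab5 (rank 396, signal 163). The next were didum, the class V myosin that Rab11 recruits (rank 1638, signal 79.0), and the exocyst gene Sec3 (rank 2068, signal 69.2). Replicate 3 ranked the peaks of CG5916, didum and Sec3 at 2848, 4670 and 3604, outside its top 2546. The peaks of CG12241, Jwa, Rep, Vps33B and Rbsn-5 were in the top 2546 of both replicates. Start peaks thus occurred in all 4 lists, and every list had an interval that included the background of 10.4%.

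**Figure D4:**
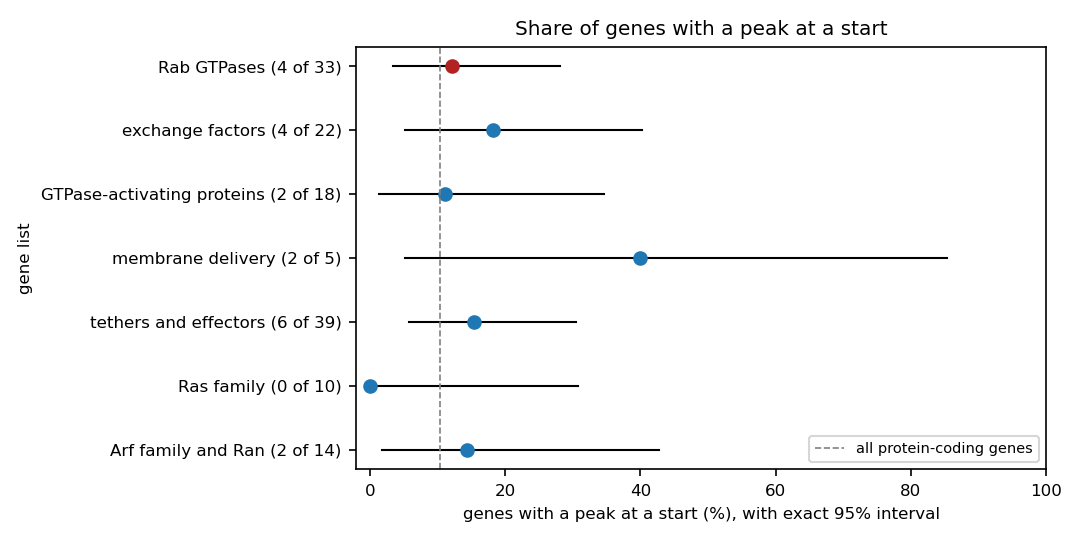
Share of genes with an optimal set summit within 500 bp of a start (x axis, percent) for the 33 Rab GTPases (red), 4 lists of Rab regulators and effectors and 2 other families of small GTPases (blue), with exact 95% intervals as lines. The dashed line is the share of all protein-coding genes (10.4%), and it lies inside all 7 intervals.

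Beside other families of small GTPases, 12.1% of Rab GTPases had a start peak, while the Ras family had 0 of 10 (interval up to 30.8%). The Arf family with Ran had 2 of 14 (14.3%, interval 1.78 to 42.8%), at Arl1, which acts at the Golgi (rank 344, signal 176), and at Ran, which drives nuclear transport (rank 2239, signal 66.1). The Ran summit lay 405 bp upstream of a start. Starts of other genes near the Arl1 and Ran peaks were not searched for. In replicate 3 the Ran peak had rank 5510, outside the top 2546, while the Arl1 peak was inside it in both replicates. The top 2546 peaks of replicate 1 alone gave 5 genes in these 24 and those of replicate 3 alone gave 1, instead of 2. The shares of all protein-coding genes were 11.0% and 9.39%. The intervals overlap, and no difference between the families was tested.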

How the data were processed

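Peak lists of 2 biological replicates of CG32264-GFP whole larvae, 1 group, were analysed. Per the labels, chromatin was sonicated to 200 to 800 bp. Per the deposited notes, the authors made a list of peaks and background from each replicate, a list from both replicates together and an optimal IDR set. The peak signal and the −log10 q are deposited values of the authors. How reads were aligned and peaks called, and with which versions and thresholds, is not given in the sources used here. The dm6 lists were used with Ensembl release 115 (BDGP6) and the RefSeq sequence of Release 6, and the dm3 lists were not used. All peaks ended within the arms.

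A summit (peak start plus offset) within 500 bp of any start of a gene counted. Peaks were ranked by signal, and ties took the lowest rank. Coordinates count from 1. Clopper-Pearson 95% intervals (exact) were computed for shares and reflect counting error alone (SciPy 1.17.1, Python 3.11.15). Coding sequences, the longest per gene, were aligned globally with Biopython 1.88. A comparison of proteins was planned, and coding sequences were used in its place. Members with a summit of the optimal set, members past its end by rank up to 2 times its size, and up to 4 genes per other list were named. List symbols were matched directly or by a unique synonym in RefSeq, and Mss4, Pra1, Rabggta and hk were not matched. Genes matched by the symbol rule were left out of the other lists. A further list and the sequence of a peak are not reported here. There is no contrast between groups, so no test was run. The start rule was tested on simulated data. The members and lists were chosen with earlier results of these data known. Depth per library is unknown from peak lists.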

Additional observations from a re-analysis of the deposited data

How the results depend on the processing

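Counts were recomputed under 26 alternatives, and 17 stayed within 1.5 times of the reported count. Not all of the 17 could have moved. With only the 33 Rab genes whose every start, in 101 bases, occurs once in the assembly, the count had to stay at 5. The genes left out, Rab9Db, Rab9E and Rab9Fa, had no peak in any list. A window of 250 bp kept all 5 Rab genes, the farthest summit being at 246 bp. With the stronger 50% of the optimal set, which holds fewer peaks, start peaks remained at 2 of 36 Rab genes (Rab3GAP1 and Rab5). They remained at 8 of 84 regulator and effector genes and at 1 of 24 genes of the Ras and Arf families. The share of all protein-coding genes fell as well, from 10.4% to 5.37% (749 genes). In the Ras and Arf families, a window of 250 bp and the most upstream start alone also gave 1 gene each, instead of 2. The shares of all protein-coding genes were then 8.25% and 8.73%. Within the coding span alone, 1 Rab gene held a summit instead of 3, against 3.38% of all protein-coding genes instead of 7.73%. Against the whole replicate lists, which also hold background regions, 5 of 5 Rab start peaks had a partner in both instead of 3. So did 97.4% of the start peaks of all protein-coding genes (1413 of 1450). With the top peaks of a single replicate (without the other replicate), Rab genes with a start peak numbered 4 to 6, Rab genes with a summit inside 2 to 4, regulators and effectors 12 to 18 and genes of the Ras and Arf families 1 to 5. Of all protein-coding genes, 9.39% had a start peak without replicate 1 and 11.0% without replicate 3. A summit lay inside 7.82% and 7.74% of them. Replicate 1 alone held Rab39 and Rab7 and lacked Rab1, and replicate 3 alone held Rab32 and lacked Rab1 and RabX1. A window of 1000 bp added Rab14 and Rab30, and the share of all protein-coding genes rose to 12.6%. Rab GTPases without the 3 regulators, an alternative chosen after seeing the data, had 4. No paired analysis was possible because the study has 1 group. The low number of genes and the unknown depth limit what these counts can show.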
